A study of Mus musculus with 16 samples.

Results

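The miR-181 family of the mouse was followed through the repair of a wire-injured carotid artery. The family consists of miR-181a, miR-181b, miR-181c and miR-181d, and its members were the array entries whose systematic name was mmu-miR-181a, mmu-miR-181b, mmu-miR-181c or mmu-miR-181d. These are 4 of the 611 mouse microRNAs (miRNAs) on the array, and all 4 were among the 323 that were tested. The series was made of 16 arteries from female mice of the C57BL/6 background, each hybridised to 1 Agilent miRNA array with a single dye (Cy3). Every mouse, those of the control group included, carried the genotype ApoE-/-, which lacks apolipoprotein E and makes mice prone to atherosclerosis, and the protocol names a western-type diet. The groups were uninjured carotid arteries (n = 3) and wire-injured arteries 1 day (n = 3), 7 days (n = 3), 14 days (n = 3) and 28 days (n = 4) after the injury. The labels give an age of 8 weeks for day 1 and of 6 to 8 weeks for the other groups. RNA came from lysed carotid artery tissue, so a value is an average over all its cell types, and fewer cells of a type cannot be told apart from less of a miRNA per cell.

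A miRNA is a short RNA that guides an Argonaute protein to messenger RNAs and lowers their translation and stability, chiefly through pairing of its seed, bases 2 to 8, with a site in the target. Members of a family share the seed and so can share targets. miR-181a is abundant in the thymus and is known for tuning the signalling threshold of the T-cell receptor, and miR-181b is known for restraining NF-kB signalling in vascular endothelium. The family is encoded in 3 clusters, of which the a and b genes occupy the first 2 and the c and d genes the third.

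The mature sequences are shown because they say how alike the members are, and so how far an array can tell them apart. They are those of RefSeq on GRCm38.p6, 5′ to 3′, with the seed in capitals.
miR-181a: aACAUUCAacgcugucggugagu
miR-181b: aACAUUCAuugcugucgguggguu
miR-181c: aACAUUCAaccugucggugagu
miR-181d: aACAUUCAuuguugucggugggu
All 4 carry the seed ACAUUCA, which pairs with UGAAUGU in a target. Of the array's 611 miRNAs, 308 were matched by name to a sequence in that table, and 0 of these other than the members carried the same seed. miR-181c differs from miR-181a by the loss of 1 base (G11 of miR-181a, counted from the 5′ end). miR-181d differs from miR-181b by C12U and by 1 base fewer at the 3′ end. Between the miR-181a and miR-181b types the substitutions are A9U, C10U and A21G, and miR-181b has 1 base more. Whether the probes of the nearest pairs, a with c and b with d, also caught the other member was not tested.

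miR-181a and miR-181b each come from 2 loci and cannot be assigned to one of them. Mir181a-1 (chr1:137966455-137966541) and Mir181b-1 (chr1:137966639-137966718) lie 97 bases apart on chromosome 1 and overlap no other gene of the RefSeq table. Mir181a-2 (chr2:38852735-38852810) and Mir181b-2 (chr2:38853830-38853918) lie 1019 bases apart on chromosome 2, within the span of Nr6a1, which encodes a nuclear receptor, and of its antisense gene Nr6a1os. Mir181c (chr8:84178873-84178961) and Mir181d (chr8:84178716-84178787) lie 85 bases apart on chromosome 8, on the minus strand. The Mir23a, Mir27a and Mir24-2 genes begin 29.6 to 29.9 kb from Mir181c on the same chromosome.

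Each member had 2 probes with 10 spots each, and the brighter probe stood for the member. All 4 members were well above background on all 16 arrays, and 0 of their spots were saturated. Signals are given as processed intensity or as scaled log2 signal, which is log2 of the intensity over the array's own 75th percentile, taken across the 395 mouse probes detected on every array. That percentile ran from 401 to 1432 intensity units over the arrays, and 252 to 337 miRNAs were detected per array. Across miRNAs, arrays of 1 group correlated with r of 0.929 to 0.997. Day 1, day 7 and replicates 1 and 2 of day 28 lay on slide 1, and day 14, uninjured and replicates 3 and 4 of day 28 on slide 2, each slide with 1 scan time. Day 1 and day 7 therefore share no slide with the uninjured group, and only day 28 links the slides. Scaled levels of different members are not set against each other, since a probe's brightness depends on its own sequence.

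One array stood apart before any comparison. On day 28 replicate 2, miR-181a had a processed intensity of 619, against 116 to 152 on the other 3 day 28 arrays. Its scaled log2 signal there was -0.83, against -2.68 to -2.28 on the other day 28 arrays and -3.28 to -2.21 on the other 15 arrays together. miR-181b stood at -1.30 on that array (-2.48 to -2.03 on the others of day 28), miR-181c at -1.71 (-2.15 to -1.84) and miR-181d at -3.20 (-3.96 to -3.64). All 4 members were thus highest on this array within day 28, miR-181a by the widest margin. Values without this array stand beside the members' differences that involve day 28.

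**Figure D1:**
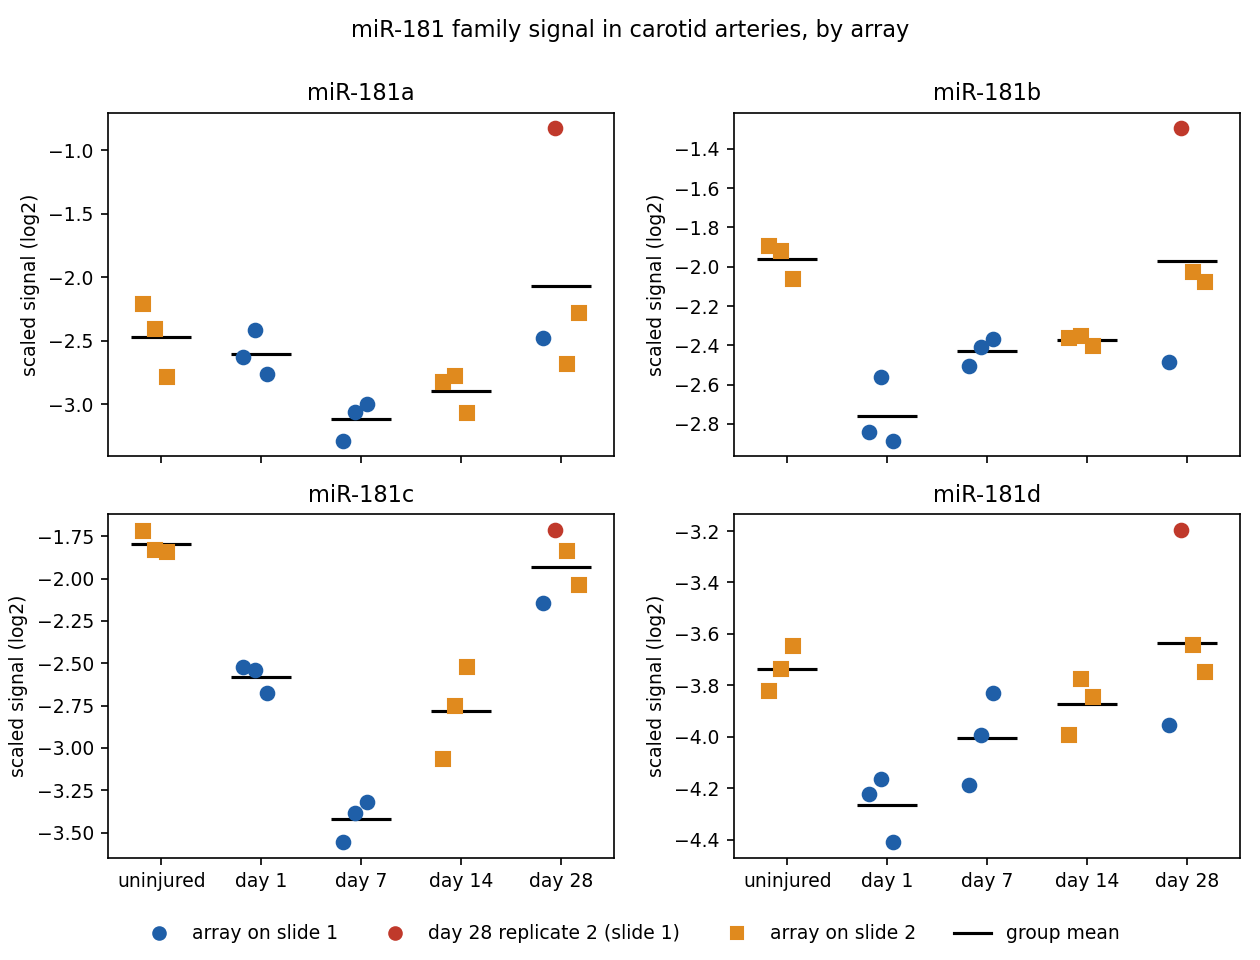
Scaled log2 signal (y axis) of each miR-181 member on every array, by group (x axis); circles are arrays of slide 1, squares arrays of slide 2, the red circle is day 28 replicate 2, and bars are group means. miR-181c is lowest at day 7, where its 3 arrays lie between -3.56 and -3.32, and returns at day 28 to -2.15 to -1.71; miR-181a has 1 high day 28 array at -0.83.

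miR-181c had the clearest course of the family. Its scaled log2 signal was -1.72, -1.83 and -1.84 in the 3 uninjured arteries, -2.52, -2.54 and -2.68 on day 1, and -3.56, -3.39 and -3.32 at day 7. It was -3.07, -2.75 and -2.52 at day 14 and -2.15, -1.71, -1.84 and -2.04 at day 28. At day 1, day 7 and day 14 every artery lay below every uninjured one, while the day 28 arteries overlapped the uninjured range. In processed intensity, before any scaling, miR-181c read 103, 78.1 and 101 at day 7, against 122, 151 and 174 in uninjured arteries.

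Against uninjured arteries, miR-181c was 1.72-fold lower at day 1 (log2 -0.78 ± 0.15 SE, n = 3 and 3, adjusted p = 0.00151 by limma). At day 7 it was 3.08-fold lower (log2 -1.62 ± 0.15 SE, adjusted p = 2.38e-06). At day 14 it was 1.98-fold lower (log2 -0.98 ± 0.15 SE, adjusted p = 0.000239). At day 28 the difference was log2 -0.14 (95% interval -0.44 to 0.17, n = 4 and 3, adjusted p = 0.545), so a fall of the day 7 size lay outside the interval. Without day 28 replicate 2 that difference was -0.21 (adjusted p = 0.333). With slide as a block the day 7 difference was -1.63 (adjusted p = 0.000592) and the day 14 difference -0.98 (adjusted p = 0.000315), but the day 1 call ended (log2 -0.79, adjusted p = 0.0689). Within slide 2 alone, which holds both groups, day 14 differed from uninjured by -0.98 (adjusted p = 0.00392).

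Between the days after injury, which asks whether the effect of injury differed with time, miR-181c was lower at day 7 than at day 1 and higher after day 7. It was 1.79-fold lower at day 7 than at day 1 (log2 -0.84 ± 0.15 SE, adjusted p = 0.000688). Day 14 was above day 7 by log2 0.64 ± 0.15 SE (adjusted p = 0.0207), and day 28 above day 14 by 0.85 ± 0.14 SE (adjusted p = 0.00203), or by 0.77 without day 28 replicate 2 (adjusted p = 0.00694). Day 28 was 2.80-fold above day 7 (log2 1.49 ± 0.14 SE, adjusted p = 1.06e-05) and 1.41 above it in log2 without day 28 replicate 2 (adjusted p = 4.31e-05). Day 28 was also above day 1 by 0.65 ± 0.14 SE (adjusted p = 0.0041), or by 0.57 without that array (adjusted p = 0.00957), whereas day 14 and day 1 differed by -0.20 (95% interval -0.53 to 0.12). Slide 1 holds day 1, day 7 and replicates 1 and 2 of day 28. Within it miR-181c differed by -0.84 between day 7 and day 1 (adjusted p = 0.00362) and by 1.49 between day 28 and day 7 (adjusted p = 0.00231). With slide as a block and without day 28 replicate 2, day 28 differed from day 7 by 1.27 (adjusted p = 0.00373) and from day 1 by 0.43 (adjusted p = 0.173). The step between day 14 and day 7 spans the slides. Its call ended with slide as a block (log2 0.65, adjusted p = 0.446) and under 4 other scalings. With that block 0 of all 323 tested miRNAs were called for this step, and under those scalings 0% to 6.81% were. Within slide 2 the step between day 28 and day 14 was 0.84 (adjusted p = 0.0705), in a fit that called 0 of the 323. The order of the group means was thus day 7 below day 14, day 1, day 28 and uninjured, and of neighbours in that order day 14 and day 1, and day 28 and uninjured, did not differ past the threshold. The sign of the difference between day 14 and day 1 turned under other scalings.

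The second probe of miR-181c, also well above background on all 16 arrays, gave log2 differences from uninjured of -0.65, -1.56, -1.01 and -0.04 on days 1, 7, 14 and 28. The probes correlated across the arrays with r of 0.973.

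miR-181b had its lowest mean at day 1. Its scaled log2 signal was -1.89, -1.92 and -2.06 in uninjured arteries, -2.84, -2.56 and -2.88 at day 1 and -2.51, -2.41 and -2.37 at day 7. It was -2.36, -2.35 and -2.40 at day 14 and -2.48, -1.30, -2.03 and -2.08 at day 28. All 9 arteries of day 1, day 7 and day 14 lay below the 3 uninjured ones, and day 28 overlapped them. miR-181b was 1.74-fold lower at day 1 than in uninjured arteries (log2 -0.80 ± 0.22 SE, adjusted p = 0.0147). At day 7 it differed by -0.47 (95% interval -0.95 to 0.01, adjusted p = 0.0975) and at day 14 by -0.41 (95% interval -0.89 to 0.06, adjusted p = 0.16).

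Those later values of miR-181b passed the threshold when day 28 replicate 2 was left out, at the same size and with an SE of 0.13 in place of 0.22 (adjusted p = 0.0111 at day 7 and 0.0287 at day 14). Within slide 2 the day 14 difference also passed (adjusted p = 0.00639). With slide as a block the day 1 call ended at a similar size (log2 -0.96, adjusted p = 0.132), and with the block and without that array the day 1 difference was -0.37 (adjusted p = 0.263). At day 28 the difference from uninjured was -0.01 (95% interval -0.46 to 0.43), and -0.24 without that array (adjusted p = 0.233). Day 28 was above day 1 by 0.79 ± 0.21 SE (adjusted p = 0.0106), and by 0.57 without the array (adjusted p = 0.0081). Within slide 1, whose day 28 arrays are replicates 1 and 2, that difference was 0.87 (adjusted p = 0.0815). With slide as a block and without replicate 2 it was 0.28 (adjusted p = 0.238).

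miR-181d, which differs from miR-181b by C12U and 1 end base, had the same order of groups up to day 14. Its scaled log2 signal was -3.82, -3.74 and -3.65 in uninjured arteries, -4.22, -4.17 and -4.41 at day 1 and -4.19, -3.99 and -3.83 at day 7. It was -3.99, -3.78 and -3.84 at day 14 and -3.96, -3.20, -3.64 and -3.75 at day 28. The day 1 and day 7 arteries lay below the uninjured ones, with the nearest arteries of day 7 and uninjured at -3.829 and -3.824, and day 14 and day 28 overlapped them. It was 1.44-fold lower at day 1 than in uninjured arteries (log2 -0.53 ± 0.17 SE, adjusted p = 0.0332), but missed the threshold once slide entered the fit as a block (log2 -0.65, adjusted p = 0.208) and moved to -0.27 (adjusted p = 0.551) with the block and without day 28 replicate 2. The differences at day 7 (-0.27, 95% interval -0.64 to 0.10), day 14 (-0.14, -0.51 to 0.24) and day 28 (0.10, -0.25 to 0.45, and -0.0475 without replicate 2) did not pass. Day 28 was above day 1 by 0.63 ± 0.16 SE (adjusted p = 0.00916), by 0.48 without replicate 2 (adjusted p = 0.0143) and by 0.69 within slide 1 (adjusted p = 0.069). Slide 1 includes replicate 2, and with slide as a block and without that array the difference was 0.31 (adjusted p = 0.247).

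The second probe of miR-181d was well above background on 2 arrays, so this member rests on 1 probe. The second probe of miR-181b followed the first (r = 0.992, log2 -0.79 at day 1). Neither adds an independent sample.

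miR-181a showed no difference from uninjured that passed the threshold. Its scaled log2 signal was -2.21, -2.41 and -2.79 in uninjured arteries, -2.62, -2.42 and -2.76 at day 1 and -3.28, -3.06 and -3.0 at day 7. It was -2.83, -2.78 and -3.07 at day 14 and -2.47, -0.83, -2.68 and -2.28 at day 28. The 3 day 7 arteries were the only group wholly below the uninjured ones. The differences from uninjured were -0.13 at day 1 (95% interval -0.92 to 0.66), -0.64 at day 7 (-1.43 to 0.14, adjusted p = 0.173), -0.42 at day 14 (-1.21 to 0.37) and 0.40 at day 28 (-0.33 to 1.14).

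The width of these intervals came mostly from day 28 replicate 2: without it the SE of miR-181a was 0.17, against 0.36 with it. Without it the day 7 difference of -0.64 passed (adjusted p = 0.00685), the day 28 difference became -0.01 (adjusted p = 0.991), and day 7 was below day 1 by -0.51 (adjusted p = 0.0285). With slide as a block and all arrays the day 7 difference was -1.48 (adjusted p = 0.0493), and with the block and without replicate 2 it was -0.65 (adjusted p = 0.16). Day 28 was above day 7 by 1.05 ± 0.34 SE (adjusted p = 0.0285), and by 0.63 without replicate 2 (adjusted p = 0.0138). That call ended within slide 1, which of day 28 holds replicates 1 and 2 (log2 1.46, adjusted p = 0.0503). It also ended in the slide-blocked fit without replicate 2 (log2 0.64, adjusted p = 0.123). The second probe of miR-181a correlated with the first across arrays (r = 0.966) and also stood high on replicate 2 of day 28, at -3.21 against -4.92 to -4.80.

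**Figure D2:**
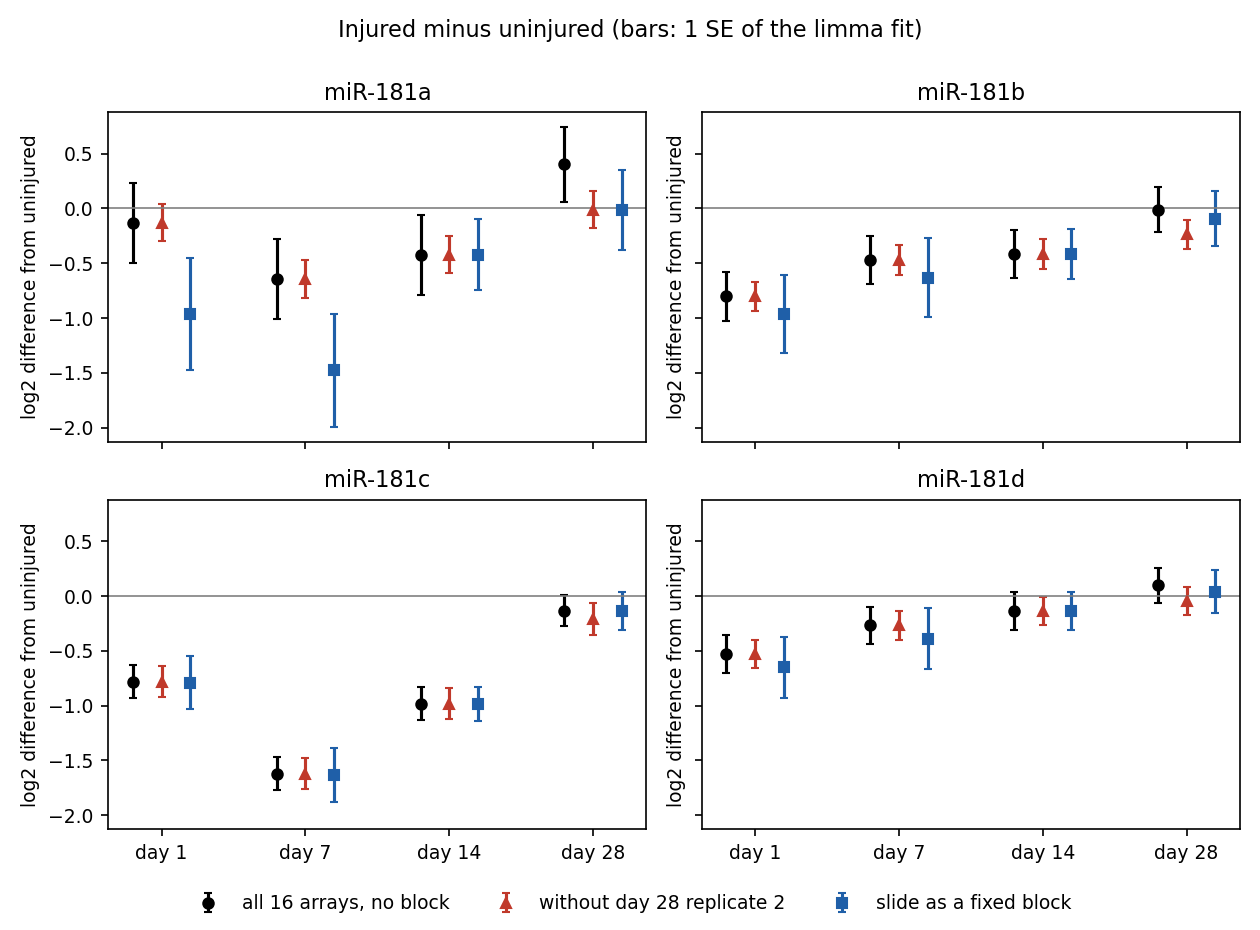
Log2 difference from uninjured arteries (y axis) of each member at each day (x axis), in the fit of all 16 arrays, without day 28 replicate 2, and with slide as a fixed block; bars are 1 SE. miR-181c differs by -1.62 at day 7 and keeps that size in each of the 3 fits, whereas miR-181a at day 7 runs from -0.64 to -1.48 with the fit.

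In the scaled data and the fit of all 16 arrays, 3 of the 4 members (b, c and d) fell against uninjured at day 1 and 0 rose, where 32.5% of all tested miRNAs were called in either direction. At day 7 and at day 14 only miR-181c fell, where 49.8% and 39% were called. At day 28 limma called 0 of the 4, and 0 had an unadjusted p below 0.05, where 26% of all were called. The median log2 difference of the members was -0.66, -0.56, -0.42 and 0.04 on days 1, 7, 14 and 28, beside medians over all tested miRNAs of 0.24, 0.0027, 0 and 0.03. These counts depend on the fit. With slide as a block 0 of the 4 were called at day 1, where 9.91% of all were, and 2 at day 7, where 28.2% were. Without day 28 replicate 2 the counts were 3 at day 1 (33.4% of all), 3 at day 7 (51.4%), 2 at day 14 (39.9%) and 0 at day 28 (23.2%). miR-181c was among the members called at day 7 and day 14 in each of these fits.

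Between days, 1 member (c) fell at day 7 against day 1 (43.3% of all called), 1 (c) rose at day 14 against day 7 (10.2%) and 1 (c) rose at day 28 against day 14 (15.8%). At day 14 against day 1, 0 were called and 1 (d) had an unadjusted p below 0.05 (39.9%). At day 28, 3 members (b, c and d) were above day 1 (34.4%) and 2 (a and c) above day 7 (33.4%). The 3 calls against day 1 became 0 when arrays were scaled by total gene signal (31.9% of all called), and 0 with slide as a block and without day 28 replicate 2. Leaving out that array alone kept 3 calls at day 28 against day 1 (32.8% of all called) and 2 against day 7 (34.4%). It gave 2 at day 7 against day 1 (44.9%) and 2 at day 14 against day 1 (42.4%). In the F test over all 4 days, miR-181b (adjusted p = 0.0201), miR-181c (adjusted p = 5.14e-06) and miR-181d (adjusted p = 0.0292) passed and miR-181a did not (adjusted p = 0.0999), where 61.6% of all tested miRNAs passed. These comparisons share arrays, each day the same 3 uninjured ones, and are not separate evidence.

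The scaling decides part of this picture. Without any scaling the median of all tested miRNAs stood at 0.43, 0.86, 0.52 and 0.63 in log2 above uninjured at days 1, 7, 14 and 28. On that basis miR-181c still read lower at day 1 (-0.54), day 7 (-0.66) and day 14 (-0.32), none past the threshold, while miR-181a, miR-181b and miR-181d read higher at day 7 and day 14. The falls given above are therefore relative to the bulk of the miRNAs in each artery. With the 75th percentile taken over all mouse probes, the median of all tested miRNAs at day 1 was -0.30 and miR-181c differed by -1.41. Of all tested miRNAs 64 rose and 41 fell at day 1, but 17 rose and 95 fell with that percentile, 17 and 103 with median scaling, 31 and 71 after quantile normalization and 34 and 2 without scaling. At day 7, where 89 rose and 72 fell, the split was 121 and 9 without scaling. At day 14 (65 and 61) it was 52 and 77 with median scaling and 68 and 4 without. At day 28 (54 and 30) it was 30 and 42 with median scaling, 30 and 47 with total gene signal and 61 and 1 without. These splits cover all miRNAs, and miR-181c fell at days 1, 7 and 14 under each of these scalings except the unscaled values, where it read lower without passing.

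Differences between members on the same array do not depend on the array's scaling. The difference miR-181c minus miR-181d, the pair from one cluster, was 1.94 ± 0.16 in uninjured arteries, 1.69 ± 0.06 on day 1, 0.58 ± 0.07 on day 7, 1.09 ± 0.20 on day 14 and 1.70 ± 0.15 on day 28 (SD of log2 differences). Over all 13 injured arteries it averaged 1.30 ± 0.50, against 1.94 ± 0.16 in the 3 uninjured ones, and 11 of the 13 lay below every uninjured artery (difference -0.64, exact permutation test, two-sided, p = 0.0107, adjusted over 6 pairs 0.0643). miR-181c thus lost ground to its cluster partner at day 7 and day 14 on each array, although the test over all injured arteries missed the threshold after adjustment. Without day 28 replicate 2 that difference was -0.65 (exact permutation p = 0.0132, adjusted 0.0615). The day 1 and day 7 arrays share no slide with the uninjured ones, so slide and injury cannot be told apart there. On slide 2 alone, with 5 injured arrays, the difference was -0.58 (exact permutation p = 0.0714, adjusted 0.286). The smallest p those arrays allow is 0.0357.

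The other pairs with miR-181c moved likewise. miR-181a minus miR-181c averaged 0.00034 ± 0.44 in injured arteries, against -0.67 ± 0.24 in uninjured ones, and 11 of 13 lay above every uninjured artery (difference 0.67, exact permutation test, two-sided, p = 0.025, adjusted 0.075). Leaving out day 28 replicate 2 gave 0.60 (exact permutation p = 0.0308, adjusted 0.0615), and slide 2 alone gave 0.39 (exact permutation p = 0.214, adjusted 0.321). miR-181b minus miR-181c was -0.16 ± 0.07 in uninjured arteries, -0.18 ± 0.15 on day 1, 0.99 ± 0.05 on day 7, 0.41 ± 0.29 on day 14 and -0.04 ± 0.33 on day 28 (SD). Over all injured arteries that pair differed from uninjured by 0.43 (exact permutation test, two-sided, p = 0.186, adjusted 0.279).

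miR-181b minus miR-181d stayed within a narrow band, at 1.78 ± 0.18 in uninjured arteries and 1.5 to 1.67 as the mean of each day. It was 1.57 ± 0.14 in injured arteries, against 1.78 ± 0.18 in uninjured ones (difference -0.21, exact permutation test, two-sided, p = 0.0679, adjusted 0.136). With day 28 replicate 2 left out the difference was -0.24 (exact permutation p = 0.0264, adjusted 0.0615). miR-181a minus miR-181b (difference 0.24, adjusted p = 0.471) and miR-181a minus miR-181d (0.03, adjusted p = 0.961, same exact permutation test) did not differ past the threshold over all injured days. By day they moved both ways: a minus b was -0.51 ± 0.21 in uninjured arteries, 0.16 ± 0.05 on day 1, -0.69 ± 0.08 on day 7, -0.52 ± 0.13 on day 14 and -0.10 ± 0.47 on day 28 (SD). All 3 day 1 arteries, at 0.13 to 0.22, lay above the uninjured ones, at -0.73 to -0.32. Those groups share no slide, so slide and day cannot be told apart there. Within day 28 a minus b was 0.01 and 0.47 on slide 1, and -0.66 and -0.21 on slide 2. For a minus d the values were 1.27 ± 0.38, 1.67 ± 0.08, 0.89 ± 0.05, 0.98 ± 0.20 and 1.57 ± 0.59 from uninjured to day 28, and single days were not tested. The smallest p that 13 against 3 arteries allow is 0.00357.

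**Figure D3:**
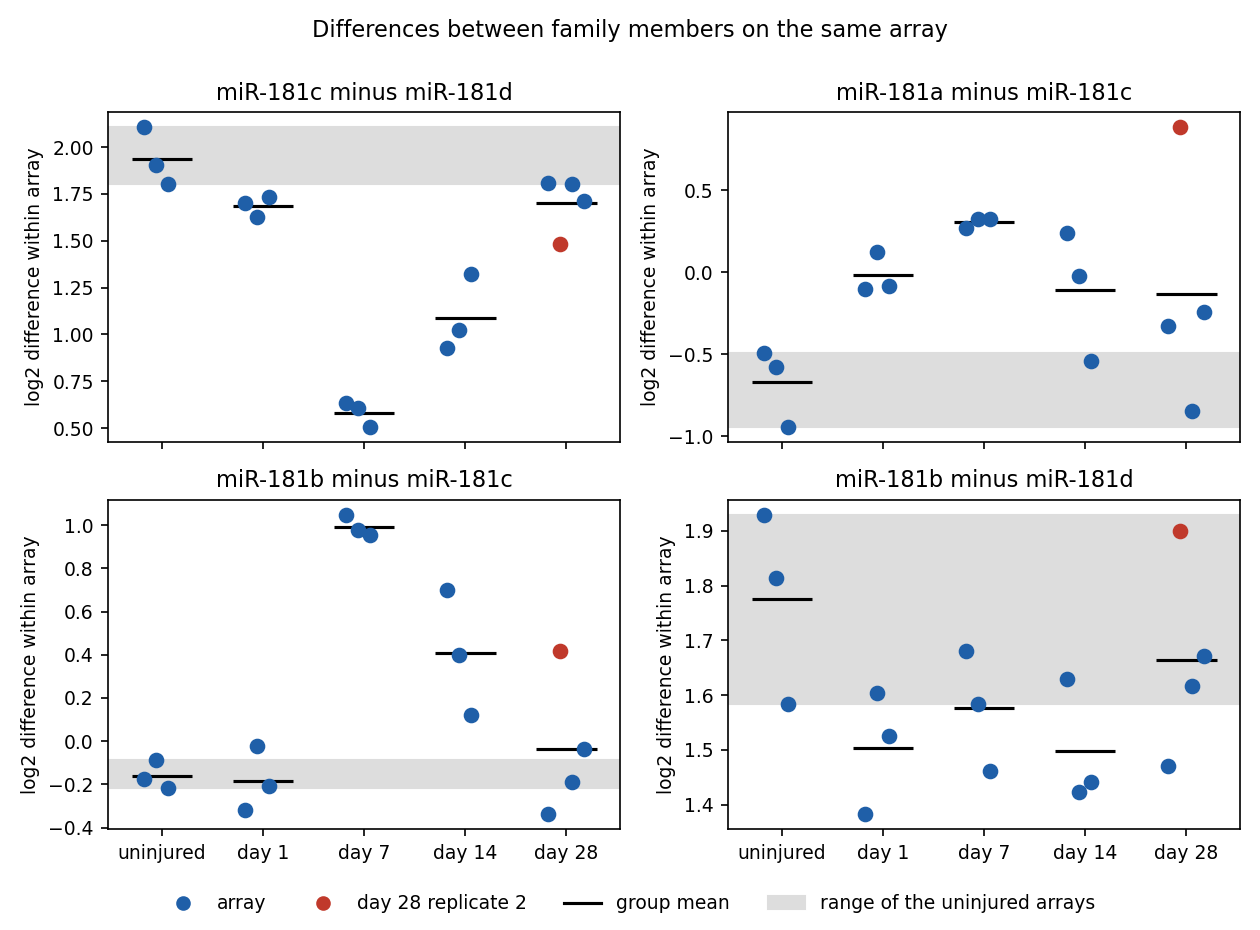
Log2 difference between 2 members on the same array (y axis) by group (x axis), with group means as bars and the range of the 3 uninjured arrays shaded; the red point is day 28 replicate 2. miR-181c minus miR-181d drops to 0.58 on average at day 7, against 1.94 in uninjured arteries, while miR-181b minus miR-181d keeps group means of 1.5 to 1.78.

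As a description over the 16 arrays, miR-181b and miR-181d followed each other most closely (Pearson r = 0.929, and 0.877 without day 28 replicate 2). This is the pair whose sequences differ by 1 substitution and 1 end base. miR-181c and miR-181a, which differ by 1 base, correlated with r of 0.667 (0.776 without that array). The correlations of miR-181a with miR-181b and miR-181d rested largely on that array, at 0.711 and 0.624 with it and 0.368 and 0.204 without it. All these values share the scaling of their array.

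Among the 221 miRNAs detected on all arrays, those most like miR-181c over the 16 arrays were miR-23b (r = 0.935), miR-30d (r = 0.926) and miR-30c-2* (r = 0.893). miR-23b, encoded in a cluster with miR-27b, differed from uninjured by log2 -0.29 on day 1, -1.19 on day 7 (adjusted p = 7.20e-05), -0.79 at day 14 (adjusted p = 0.00227) and 0.01 at day 28. miR-30d differed by -0.47, -1.07, -0.66 and -0.18 at the same days, with calls at day 7 and day 14. Neither differed from uninjured past the threshold at day 28. By contrast miR-30c-2* was still lower at day 28 (log2 -0.53, adjusted p = 0.0315), as was miR-30a (log2 -0.63, adjusted p = 0.0133). These miRNAs were picked for following miR-181c, so a course shared with it is no finding. Without day 28 replicate 2 the 3 most alike were miR-30a, miR-23b and miR-30c-2* (r = 0.94, 0.93 and 0.924).

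For miR-181b the most alike were miR-320, let-7c and miR-191* (r = 0.806, 0.785 and 0.782), and without day 28 replicate 2 let-7c, let-7d and miR-99a (r = 0.915, 0.892 and 0.882). For miR-181d they were miR-676, miR-320 and let-7c (r = 0.824, 0.815 and 0.796), and without that array miR-99a, let-7c and miR-151-5p (r = 0.908, 0.906 and 0.887). miR-181a was most like miR-128, miR-467b and miR-455 (r = 0.831, 0.824 and 0.8). Of those, miR-128 and miR-467b were themselves high on day 28 replicate 2, at -0.06 against -2.28 to -1.98 and at -3.01 against -4.57 to -4.26 on the other day 28 arrays. Without it miR-181a was most like miR-30d, miR-455 and miR-30c (r = 0.895, 0.867 and 0.842).

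The chromosome 8 neighbours of miR-181c and miR-181d, miR-23a, miR-27a and miR-24, were all detected on all arrays. Against uninjured, 2 of the 3 fell on day 1, 3 of 3 on day 7, 2 of 3 on day 14 and 0 of 3 on day 28, where 41, 72, 61 and 30 of all 323 tested miRNAs fell (32.5%, 49.8%, 39% and 26% were called in either direction). At day 7 miR-24, which is also made from a second locus, was 1.75-fold lower (log2 -0.81 ± 0.14 SE, adjusted p = 0.000319). On the same day miR-27a, from the same cluster, was 1.53-fold lower (log2 -0.62 ± 0.15 SE, adjusted p = 0.00352). All 3 were above day 7 again at day 28, by 0.49 to 0.66 in log2. In that comparison 55 of all 323 tested miRNAs rose and 33.4% were called in either direction. Whether they and the miR-181 members share a transcript in this tissue was not tested, and miR-23a is close in sequence to miR-23b.

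**Figure D4:**
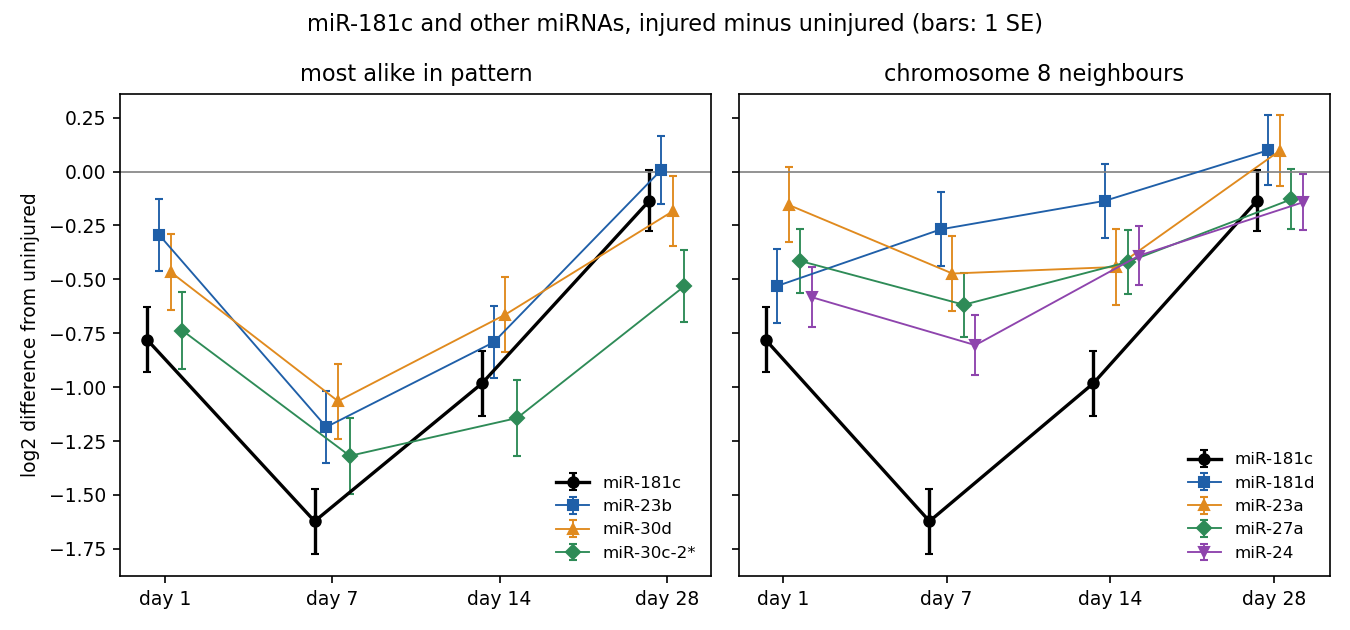
Log2 difference from uninjured arteries (y axis, bars 1 SE) at each day (x axis) for miR-181c beside the miRNAs most like it in pattern (left) and beside its chromosome 8 neighbours (right). miR-181c, at -1.62, is below all the others shown at day 7. miR-23b, at -1.19 on that day, was picked for following miR-181c, and at day 1 it differs by -0.29, against -0.78 for miR-181c.

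Of 11 miRNAs of vascular inflammation, a list around NF-kB signalling that does not include the family, 6 rose and 1 fell on day 1, 9 rose on day 7, 7 rose on day 14 and 8 rose on day 28, with 0 falling on the later days. Over all 323 tested miRNAs, 64, 89, 65 and 54 rose and 41, 72, 61 and 30 fell on days 1, 7, 14 and 28. miR-146b (log2 3.03 ± 0.18 SE, adjusted p = 3.50e-08) and miR-146a (2.45 ± 0.17 SE, adjusted p = 2.08e-07), which damp NF-kB signalling, rose 8.15-fold and 5.45-fold at day 7. Of 9 lymphoid miRNAs, 8 were tested and 4, 5, 6 and 5 rose at days 1, 7, 14 and 28, among them miR-155 (7.82-fold at day 7). The lists share miR-146a, miR-155 and miR-92a. The miR-181 members did not rise with either list at any day in the scaled data. Both lists held their rise at day 28, when the miR-181 members were near uninjured.

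Cell type markers changed too, leukocyte markers being highest on day 1 and smooth muscle markers lowest at day 14. The summed scaled signal of 4 leukocyte markers was 1.53 to 1.91 in uninjured arteries, 25.4 to 28.1 on day 1, 12.6 to 16.9 on day 7, 9.74 to 15.5 on day 14 and 8.07 to 11.1 on day 28. Of those 4, 3 rose on each of the 4 days, among them miR-223, a myeloid miRNA (9.03-fold at day 7). On days 1, 7, 14 and 28, 64, 89, 65 and 54 of all 323 tested miRNAs rose and 41, 72, 61 and 30 fell. Smooth muscle miR-143 and miR-145 summed to 3.53 to 6.37 in uninjured arteries, 2.94 to 5.13 on day 1, 1.54 to 1.80 on day 7, 1.05 to 1.1 on day 14 and 1.89 to 2.08 on day 28, and both fell on days 7, 14 and 28. Endothelial miR-126-3p was detected on all arrays, rose at day 7 (log2 0.45 ± 0.16 SE, adjusted p = 0.0306) and was called at no other day. The other listed endothelial marker, miR-126-5p, was detected on 3 of the 16 arrays and was not tested. Smooth muscle markers and miR-126-3p were thus present in every group, as belongs to a vessel wall.

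Markers of other tissues moved too. Of 4 neuronal markers, 3 were tested and 3 fell at day 7 and at day 14, and their summed signal was 0.784 to 2.03 in uninjured arteries, 1.20 to 2.56 on day 1, 0.106 to 0.147 on day 7, 0.0725 to 0.593 on day 14 and 0.35 to 0.732 on day 28. Of 3 fat-associated markers, 2 fell at day 7, 3 at day 14 and 2 at day 28 (summed signal 2.07 to 2.77 at day 7, against 8.37 to 11.5 in uninjured arteries). Of 5 striated muscle markers, 4 were tested, and 1, 2 and 3 of them fell at days 7, 14 and 28. Of 3 erythroid markers limma called 0 against uninjured at any day, and 1 (miR-486, day 7) had an unadjusted p below 0.05. Of 6 epithelial markers, 4 were tested and 1 fell on each day. Beside these counts, 41, 72, 61 and 30 of all 323 tested miRNAs fell on days 1, 7, 14 and 28. A single call in so short a list is not read as a result. The neuronal sum at day 7 lay below that of every artery of uninjured, day 1 and day 28. At day 14 it was 0.0725 on replicate 1 and 0.593 and 0.518 on the others, which lay within the day 28 range. The part of any of these cell types in the course of miR-181c was not tested.

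Day 28 replicate 2 had the highest summed signal of epithelial markers. The summed signal of 6 epithelial markers was 1.80 there, against 0.128 to 0.15 on the other day 28 arrays and 0.117 to 0.379 in the other groups. miR-200b (log2 4.34), miR-141 (4.17), miR-200c (3.54) and miR-375 (2.33) exceeded the mean of the other day 28 arrays most of all 323 tested miRNAs. miR-375 stood at -3.20 on this array, against -2.06, -2.75 and -3.22 in uninjured arteries, whereas miR-200b, miR-141 and miR-200c were highest on it. After them came miR-128 (2.03) and miR-467e (1.99), which are on neither the epithelial nor the lymphoid list. Lymphoid miR-150 ranked 7th (1.92), miR-181a 8th (1.65), miR-142-3p 9th (1.62), miR-181b 20th (0.90), miR-181d 39th (0.59) and miR-181c 87th (0.30), where the median was 0.09. Myeloid miR-223 had a gap of -0.01. The 9 lymphoid miRNAs summed to 18.3 on that array, against 9.98 to 12.9 on the other 3. High miR-181a thus came on 1 array together with epithelial and lymphoid miRNAs and with others on neither list, and their part in it was not tested.

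**Figure D5:**
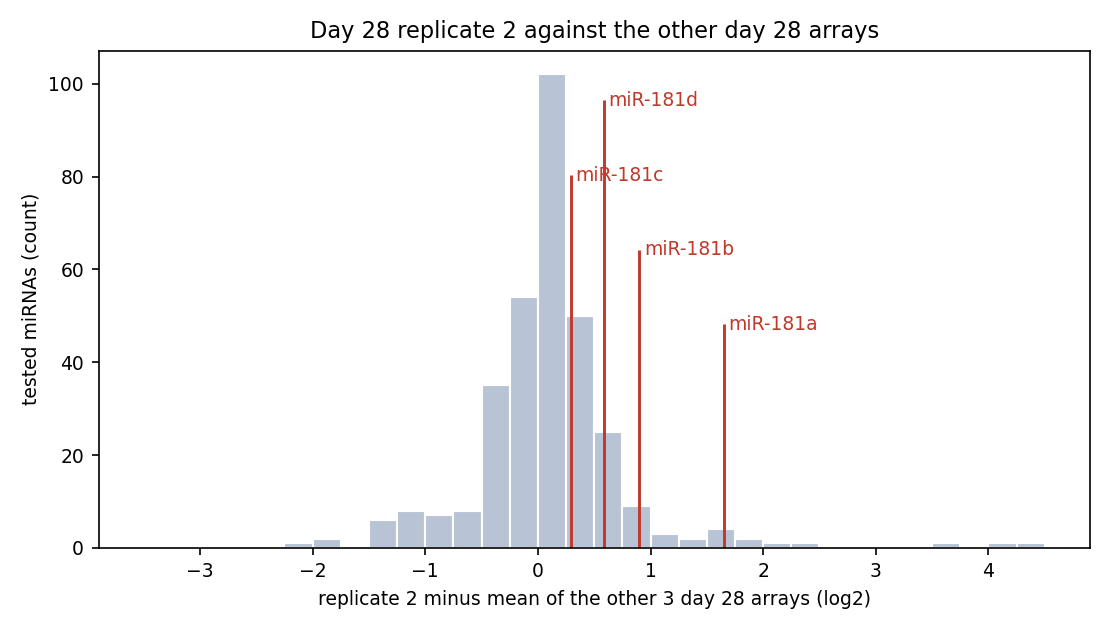
Histogram of the gap between day 28 replicate 2 and the mean of the other 3 day 28 arrays (x axis, log2) over the 323 tested miRNAs (y axis, count), with the miR-181 members as red lines. miR-181a, at 1.65, lies far to the right of the median of 0.09 and miR-181c, at 0.30, close to it.

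The passenger strands, the opposite arms of the hairpins, were near the detection limit. miR-181a-1*, the 3p arm of Mir181a-1, was well above background on 5 of the 16 arrays: all 3 of day 7, 1 of day 14 and day 28 replicate 2. Its processed intensity was 42.9 on day 28 replicate 2, against 5.94 to 12.4 on the other day 28 arrays, 13.5 to 16.9 at day 7 and 6.12 to 7.04 in uninjured arteries. It passed the filter on dim miRNAs through day 7, but its scaled values were at or near the floor and were called in no comparison with uninjured. miR-181a-2*, from the other miR-181a gene, was well above background on 0 of 16 arrays. The a-1 arm thus had its highest signal on the array where miR-181a itself was highest, whereas the a-2 arm was not well above background there.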

How the data were processed

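Per the labels, total RNA (700 ng) of each artery was labelled with Cy3-pCp and hybridised to 1 array, and the series design gives 3 to 4 animals per group, so p-values measure the spread between animals. The deposited scanner files hold processed intensity values, background-subtracted in Agilent Feature Extraction 9.5.1.1 per the file headers and not normalised between arrays. The deposited value table of 610 miRNAs is on the same intensity scale, since 99.9% of it matched the scanner files' total gene signal to within 0.1%. It was used as an alternative only.

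Intensities were averaged over the spots of a probe without outlier marks. The scale of an array was its 75th percentile across the 395 mouse probes that every array detected. Scaled values below 0.0181 were raised to that floor before log2. A probe was detected where at least 50% of its spots were well above background. The brightest probe stood for a miRNA, and 323 miRNAs detected on every array of at least 1 group were tested. The comparisons used limma 3.58.1 in R 4.3.3: 1 linear model of 5 groups over all 16 arrays, moderated tests (prior degrees of freedom 1.98), Benjamini-Hochberg adjustment within a comparison, threshold 0.05. The pipeline was tested on simulated data. The number of arrays limits the precision, and 3 arrays against 3 cannot give an exact permutation p below 0.1, so differences between members used all 13 injured against 3 uninjured arrays.

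Named are the members, their passenger strands, the 3 miRNAs most alike in pattern to each member among those detected on all arrays, and up to 2 members of a list with the smallest p, besides those highest on day 28 replicate 2, which were chosen after their values were seen. Members and lists were chosen with earlier results of these data known. Alternatives were other scalings, backgrounds, filters, floors and probe summaries, the value table, slide and replicate number as blocks, subsets of arrays, other moderation and weights, and each array left out. The block with replicate 2 of day 28 left out was added after the data were seen.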

Additional observations from a re-analysis of the deposited data

Results flagged for a closer look

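For miR-181a-1* at day 28, 1 sample lay far from the others: on the scaled log2 scale the gap of replicate 2 to the nearest of the other 3 arrays was the whole range of the group (gap over range 1, since those 3 lay at the floor). With the others at the floor, the ratio is 1 whenever a single array exceeds the floor, so it has no chance rate here. For the 4 members on that array the same measure, whose limit chance exceeds in about 1 in 20 groups, was 0.784 for miR-181a and 0.615 for miR-181b, which did not reach the limit.

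The other values that stood out are differences between days after injury, which test whether the effect of injury differed with time. For miR-181c these were log2 -0.84 at day 7 against day 1, 0.64 at day 14 against day 7, 0.85 at day 28 against day 14, 0.65 at day 28 against day 1 and 1.49 at day 28 against day 7. For miR-181b it was 0.79 and for miR-181d 0.63, both at day 28 against day 1, and for miR-181a 1.05 at day 28 against day 7. The miR-181a value was 0.63 without replicate 2 of day 28, and within slide 1 it missed the threshold (log2 1.46, adjusted p = 0.0503 by limma).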

How the results depend on the processing

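The fall of miR-181c at day 7 (log2 -1.86 to -0.66 over all alternatives) and at day 14 (-1.23 to -0.32) kept its direction throughout and missed the threshold only without scaling. At day 1 its range was -1.48 to -0.54, and the call also ended with slide as a block (-0.79), with the replicate block with slide as a block (-0.77), and with slide as a block and day 28 replicate 2 left out (-0.57). Below, a count is the number of members called, and a percentage is the share of all tested miRNAs called in the same setting. Where no percentage stands, the share is not given. The causes of the changes were not tested.

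Day 1 against uninjured (3 members called, 32.5%) had 0 without scaling (11.1%) and with slide as a block (9.91%). It also had 0 with that block and day 28 replicate 2 left out, and with the replicate block with slide as a block (3.1%). Day 7 against uninjured (1, 49.8%) had 0 without scaling (40.2%) and 2 with the value table (48.4%) or slide as a block (28.2%). It had 3 with total gene signal (47.1%), only the 2 groups compared (50.8%), or array weights (61.9%). Day 14 against uninjured (1, 39%) had 0 without scaling (22.3%) and 2 with quantile normalization (39.9%) or within 1 slide (39.3%). It also had 2 with only the 2 groups (32.5%), array weights (55.4%), or the slide block and day 28 replicate 2 left out. Between day 7 and day 1 (1, 43.3%) it was 0 without scaling (24.1%) and 2 with all mouse probes (41.2%), median (43.3%) or quantile scaling (41.5%). It was also 2 with only the 2 groups (51.4%) or array weights (63.2%), and 3 with the slide block and replicate 2 left out. Between day 14 and day 7 (1, 10.2%) it was 0 with all mouse probes (0.619%), median (6.81%), quantile (5.88%) or no scaling (0%), and normexp (4.95%). It was also 0 with slide as a block (0%), with that block and replicate 2 of day 28 left out, with the replicate block with slide (0%), and with only the 2 groups (19.2%). For day 28 and day 14 (1, 15.8%) it was 0 without scaling (0%), within 1 slide (0%), and with the replicate block with slide (0%). For day 14 and day 1 (0, 39.9%) it was 2 with all mouse probes (35.9%), median (34.1%) or quantile scaling (37.5%) or only the 2 groups (33.7%). It was 1 with array weights (51.4%). Day 28 against day 1 (3, 34.4%) had 0 without scaling (6.19%), with total gene signal (31.9%), or with the slide block and replicate 2 left out. It had 1 with the value table (33.2%), within 1 slide (31.3%), or with only the 2 groups (26.3%). Day 28 against day 7 (2, 33.4%) had 0 without scaling (7.43%) and 1 with median (31.3%) or quantile scaling (28.2%), normexp (22.9%) or no filter (16.4%). It also had 1 within 1 slide (21.7%), with only the 2 groups (34.4%), or with the slide block and replicate 2 left out. In the F test (3, 61.6%) the count was 0 without scaling and 1 with the replicate block with slide. With the replicate block alone the counts were as in the fit without it (3, 1, 1 and 0 against uninjured, beside 28.8%, 47.4%, 35.9% and 20.1% of all). Over 30 pairs with the same number in different groups, deviations from the group means correlated with r from -0.449 to 0.563 (median -0.061), and 8 exceeded 0.1. Over 72 pairs with different numbers the median was 0.015, and 25 exceeded 0.1. With so few arrays in a group, these values cannot settle whether the labels' numbers pair the arteries.

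Leaving out 1 array at a time gave counts of 1 to 3 (day 1), 1 to 3 (day 7), 1 to 2 (day 14) and 0 to 0 (day 28) against uninjured. It gave 1 to 2 (day 7 against day 1), 0 to 1 (day 14 against day 7), 1 to 1 (day 28 against day 14), 0 to 2 (day 14 against day 1), 3 to 3 (day 28 against day 1), 1 to 4 (day 28 against day 7) and 1 to 4 (F test). The count was 1 at day 1 without day 1 replicate 1, where 22.3% of all were called. Day 14 against day 7 had 0 without day 7 replicate 1 (8.98% of all called) or 2 (1.55%) or day 14 replicate 2 (0.31%) or 3 (6.81%). At day 28 against day 7 the count was 1 without any one day 7 array (26.3% to 33.4%) and 4 without day 28 replicate 1 (36.5%). The F test count was 1 without day 1 replicate 1 or 3. Without day 28 replicate 2 the counts were 3 (day 7, 51.4%), 2 (day 14, 39.9%), 2 (day 7 against day 1, 44.9%) and 2 (day 14 against day 1, 42.4%). Without day 28 replicate 1 the day 7 count was 2 (50.2%).

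The values that changed sign were log2 differences of members that had not passed the threshold. Without scaling, miR-181a read 0.11 at day 1, 0.32 at day 7 and 0.24 at day 14, miR-181b 0.50, 0.25 and 0.63 at days 7, 14 and 28, miR-181c 0.50 at day 28, and miR-181d 0.70 at day 7 and 0.53 at day 14, all against uninjured. At day 28 against uninjured, miR-181a read -0.015 with slide as a block (with or without replicate 2) and within 1 slide, -0.081 with the replicate block with slide, and -0.012 to 0.61 with 1 array left out. miR-181b there read 0.0236 with the replicate block and -0.24 to 0.16 with 1 array left out, above 0 without day 28 replicate 1, 3 or 4 or uninjured replicate 1 or 2. miR-181d there read -0.17 (median), -0.23 (normexp), -0.12 (total gene signal), -0.062 (value table) and -0.0475 to 0.21 with 1 array left out, the lowest without day 28 replicate 2. At day 7 against day 1 miR-181a read 0.16 (quantile) and 0.21 (no scaling). At day 14 against day 7, miR-181a read -0.0801 (no scaling), miR-181b -0.0303 (median), -0.17 (quantile), -0.25 (no scaling), -0.0265 (normexp) and -0.38 (slide block, replicate 2 left out), and miR-181d -0.17 (no scaling), -0.0602 (normexp) and -0.13 (slide block, replicate 2 left out). At day 14 against day 1, miR-181a read 0.26, 0.12, 0.31 and 0.13 (all mouse probes, median, quantile, no scaling), 0.54 with slide as a block and 0.54 with the replicate block as well. miR-181c there read 0.35, 0.20, 0.36 and 0.22 in the same 4 scalings, miR-181b -0.0435 (slide block, replicate 2 left out) and miR-181d -0.0384 (normexp). At day 28 against day 7 miR-181b read -0.0566 with the slide block and replicate 2 left out. On the same array, miR-181a minus miR-181d differed by -0.19 on slide 2, -0.0564 without day 28 replicate 2 and -0.0054 with the mean over probes, while miR-181a minus miR-181c (0.69) and miR-181c minus miR-181d (-0.70) passed with that mean; the second miR-181d probe is at the floor in all group means, so averaging it in shrinks miR-181d's own change, and the pass of c minus d is not read.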
